A study of Mus musculus with 6 samples.

Results

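Adhesion tissue that forms in the pericardial cavity of mice after talc injection was compared between day 7 and day 3, with 1 RNA-seq library on each day. These were 2 of the 6 libraries of the series, chosen by their tissue and day labels, and the adhesion library of day 1 was not used as a reference. The day 7 and the day 3 library both came from male C57BL/6 mice aged 8 weeks, which had received 300 µL of talc in saline (2.5 mg/g) through the diaphragm after a small laparotomy. No further adhesion sample of either day was analysed here, and the number of animals behind a library was not given in the sources used here. The other 4 libraries (adhesion tissue at day 1 and heart at days 0, 3 and 7) are given only as side values.

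Talc is a mineral irritant that the body cannot break down. In the first days it draws neutrophils and monocytes into a fibrin clot, and fibroblasts then replace the clot with collagen, while macrophages gather around the particles and take up debris. As such a scar matures, provisional matrix rich in fibronectin gives way to fibrillar collagen, small proteoglycans and elastic fibres, and macrophages that stay on may fuse or take on the gene programme of bone-resorbing osteoclasts.

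The day 7 library held 1844565 reads in genes and the day 3 library 1615922. Of 16777 genes with a read in either library, 10385 had 30 or more reads over both and were used for calls. Ratios are day 7 over day 3 on the deposited scale, on which a read counted 0.8825 at day 7 and 0.9912 at day 3, so a ratio of raw reads is multiplied by 0.8903. Each ratio has an exact 95% interval (Clopper-Pearson on the reads), which covers counting error alone. With 1 library a day there was no replicate check and no test between the days, and a change with time cannot be told apart from a difference between animals or dissections. "Rose" and "fell" below mean a ratio over 2-fold, without a demand on the interval. Over all genes used, the interval also excluded 1 for 586 of the 604 genes over 2-fold higher and 322 of the 333 lower. In bulk tissue, fewer cells of a type and less RNA per cell cannot be told apart.

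Most genes kept their level. The median log2 ratio of the genes used was 0.01, and 91% of them lay within 2-fold. Over 3-fold, 304 genes were higher at day 7 (2.93%) and 98 were lower (0.944%). Over 2-fold, 604 were higher (5.82%) and 333 were lower (3.21%). Many of the higher genes belonged to muscle. Of the 304, 47 were on the muscle lists and 12 on the lung lists, and of the other 245 a further 154 had a higher level in counts scaled to the library total (CPM) in the heart library of day 7 than in the adhesion library of day 7. That left 91 genes over 3-fold higher, against 80 of the 98 lower genes by the same count. A higher CPM in heart does not make heart the source of the reads. At the cardiac share given below, heart would account for at least as many day 7 reads as all other sources in 91 of the 245. That is a separate count from the 91 genes left. How often a higher CPM in heart occurs among all 10385 genes used is not given here. The comparison with heart does not set aside skeletal muscle or lung genes that are on no list. Of 24 skeletal muscle genes over 2-fold higher, 5 had a higher CPM in heart, and of 9 lung epithelial genes 0 did. Inmt, described below with the lung genes, is among the 91 genes left by the comparison with heart.

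**Figure D1:**
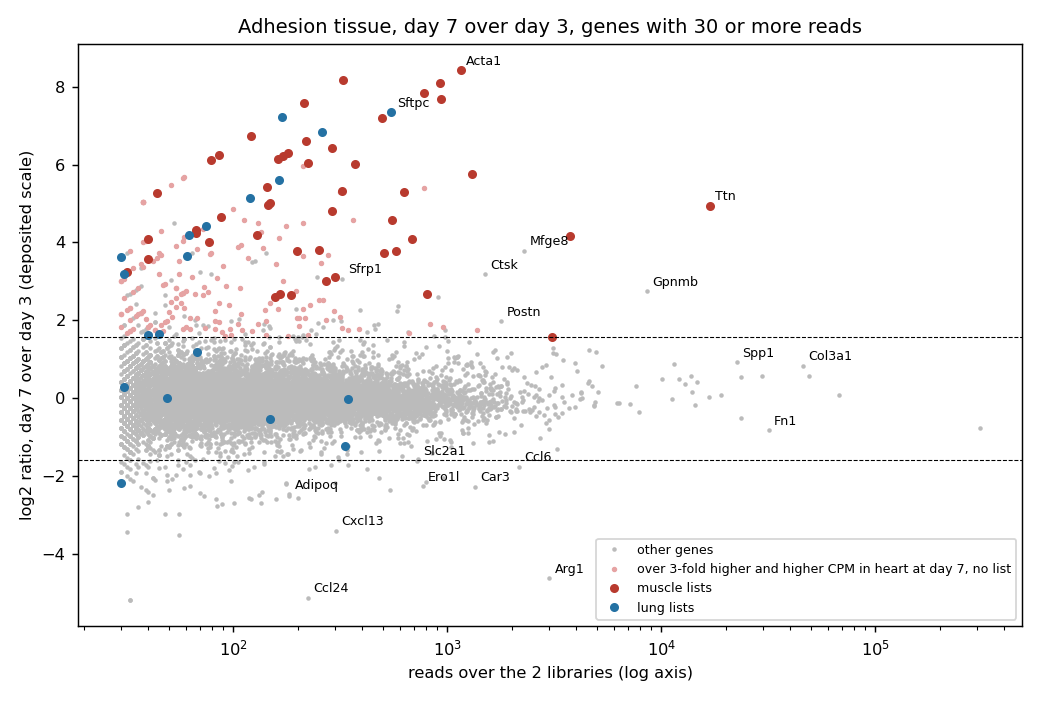
Each point is a gene with 30 or more reads, with its reads over the 2 libraries on the x axis (log scale) and its log2 ratio of day 7 over day 3 on the y axis. Dashed lines mark 3-fold. Muscle genes (red), lung genes (blue) and genes with a higher CPM in heart (pale red) fill most of the top, Mfge8, Ctsk and Sfrp1 stand highest among labelled genes outside them, and Arg1 and Ccl24 lie lowest among those labelled.

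Muscle genes are therefore described apart. All 24 skeletal muscle genes with 30 or more reads rose, with a median log2 ratio of 6.09, and all 22 cardiac genes rose, with a median of 4.05. Myh1, a fast skeletal myosin heavy chain, had 922 reads at day 7 and 0 at day 3. That is 274-fold higher against a floor of 3 reads, with an interval that reached down to 222-fold and had no upper end. Acta1, skeletal alpha-actin, had 1151 reads at day 7 and 3 at day 3, and Ttn, the giant sarcomere spring, had 16366 and 472. Nppa, the atrial natriuretic peptide, had 366 reads at day 7 and 5 at day 3. The muscle lists together took 2.0% of reads at day 7 and 0.114% at day 3, beside 4.75% in the adhesion library of day 1, so day 3 was the lowest of the adhesion libraries. Set against heart of the same day, the summed CPM of the cardiac list was 9.22% of the heart value at day 7 and 0.725% at day 3. Ttn, which skeletal muscle also makes, gave 16366 of the 27468 reads of that list at day 7. The cardiac share may therefore hold skeletal muscle as well, and its part was not tested. Myh3, an embryonic myosin of forming or regenerating fibres, had 40 reads at day 7, 0 at day 3, 0 at day 1 and 0 in each heart library. The largest rises outside the lists also fell among genes of striated muscle: of the 15 largest by interval, 12 had a higher CPM in heart at day 7, among them Nrap (209 reads at day 7, 3 at day 3), Actn2 (308 and 7) and Casq2 (108 and 4), which encode proteins of the sarcomere or its calcium store. The part that muscle carried along in dissection took in these values was not tested.

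Lung epithelial genes rose too, but not all of them. Of 12 lung epithelial genes with 30 or more reads, 9 rose, with a median log2 ratio of 4.31. Sftpc, surfactant protein C of alveolar type II cells, had 549 reads at day 7 and 0 at day 3, 163-fold higher against the floor of 3 reads. Scgb1a1, the club cell secretoglobin, had 258 reads at day 7 and 2 at day 3 (115-fold, 31.5 to 953). Napsa and Abca3, which type II cells also use, did not rise (Napsa was chosen after its values were seen): Napsa had 65 reads at day 7 and 83 at day 3, and Abca3 had 182 and 163. Inmt, a methyltransferase abundant in mouse lung, had 67 reads at day 7 and 0 at day 3 (19.9-fold against the floor of 3 reads). Markers of lung vessels and pleura were divided: of 7 genes 4 rose, 3 of them with a higher CPM in heart, and 2 fell, and the reads summed over the whole list of 9 were 311 at day 7 and 316 at day 3 (1.14-fold lower, 0.973 to 1.34). Ednrb, an endothelin receptor, had 108 and 226 reads (2.35-fold lower), and Car4, a carbonic anhydrase of lung capillaries, 6 and 24 (4.49-fold lower). The heart library of day 7 also held 203 reads of Sftpc, against 0 in heart at day 3. The lung lists took 0.12% of reads in the adhesion library of day 7 and 0.0378% in that of day 3, beside 0.127% in that of day 1, so day 3 was again the lowest.

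**Figure D2:**
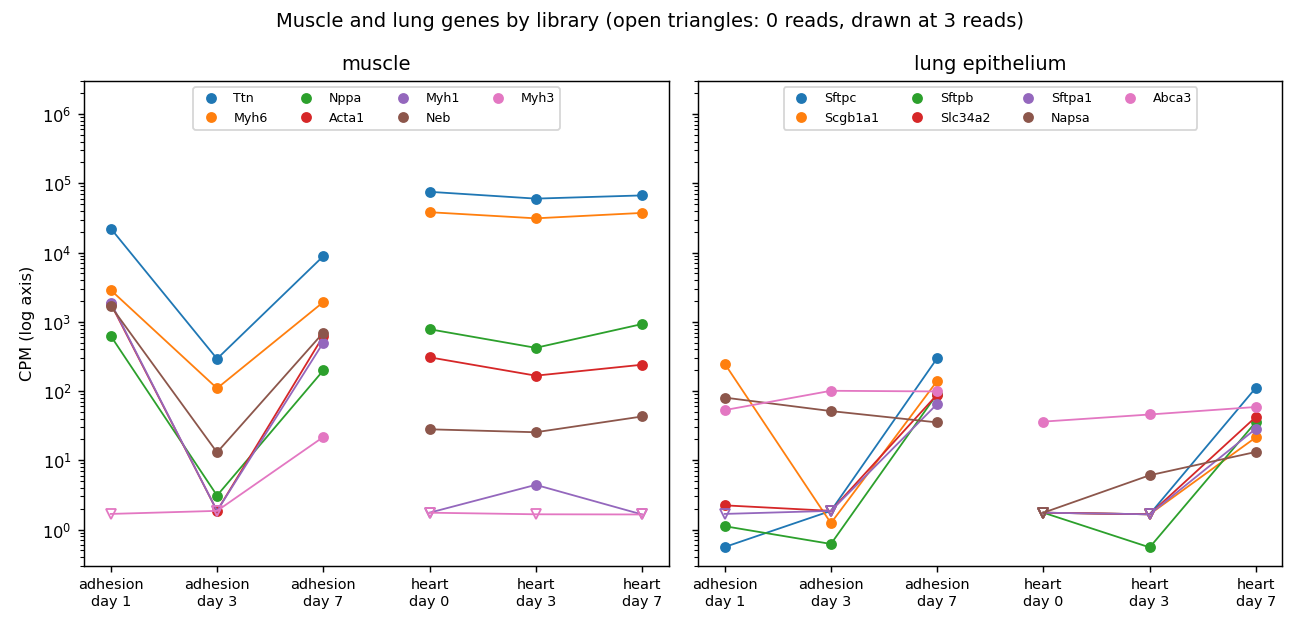
CPM (log axis) of muscle genes (left) and lung epithelial genes (right) in the 6 libraries, 1 point a library. Open triangles mark 0 reads and are drawn at the level of 3 reads. In adhesion tissue the muscle genes shown are lowest at day 3, except Myh3 with 0 reads at days 1 and 3, and Sftpc is high in the day 7 library of both tissues.

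Fibrillar collagens were already among the most abundant matrix transcripts at day 3 and were higher at day 7 by less than 2-fold. Col1a1 (a chain of type I collagen) had 30606 reads at day 7 and 18262 at day 3, 1.49-fold higher (1.46 to 1.52). Col3a1 (type III collagen) had 30652 and 15310 reads, 1.78-fold higher (1.75 to 1.82), and Col1a2 had 18420 and 11104 (1.48-fold). Per exon length, Col1a1 reached 3532 RPKM (CPM per kilobase of exon) at day 7 and 2406 at day 3. Of 7 fibrillar collagen genes, 1 rose over 2-fold (Col11a1, 32 and 7 reads) and the other 6 were higher without reaching it, with a list median of 0.82.

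Collagens of the fibril surface and of finer networks changed more. Of 12 such genes, 6 rose and 1 fell, with a median log2 ratio of 0.97. Col14a1, which decorates collagen fibrils, had 672 reads at day 7 and 199 at day 3 (3.01-fold, 2.56 to 3.54). Col6a3 had 2245 and 890 reads (2.25-fold, 2.08 to 2.43). Col6a5, an alternative chain of the same type VI collagen, went the other way, with 103 reads at day 7 and 379 at day 3 (4.13-fold lower, 3.32 to 5.19). Within type VI collagen the chains thus moved in opposite directions.

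Small leucine-rich proteoglycans, which space and bind collagen fibrils, rose as a group: 5 of 8 genes rose, 2 of them with a higher CPM in heart at day 7, and none fell, with a median of 1.11. Lum (lumican) had 490 reads at day 7 and 93 at day 3 (4.69-fold, 3.75 to 5.92), Aspn (asporin) 165 and 48 (3.06-fold), and Dcn (decorin) 1425 and 565 (2.25-fold). Bgn (biglycan) had 2677 and 1276 reads, just short of 2-fold (1.87-fold, 1.75 to 2.0). Among 17 elastic fibre genes 9 rose and 1 fell, with a median of 1.05. Eln, elastin itself, had 365 reads at day 7 and 95 at day 3 (3.42-fold, 2.72 to 4.33), and Mfap4, a microfibril protein, 330 and 61 (4.82-fold). Of the 9 that rose, 3 had a higher CPM in heart at day 7; one is Ltbp4, a latent TGF-beta binding protein (309 and 80 reads). Fbn1 (fibrillin-1) had the most reads of the list and differed little (2020 and 1414, 1.27-fold).

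Matricellular proteins split by kind. Of 19 genes 8 rose, 1 of them with a higher CPM in heart, and 1 fell, with a median log2 ratio of 0.79. Thbs4, a thrombospondin of tendon and scar, had 134 reads at day 7 and 9 at day 3 (13.3-fold, 6.78 to 29.6), and Cilp, a cartilage protein also made by activated fibroblasts, 114 and 9 (11.3-fold, 5.74 to 25.3). Postn (periostin), a marker of activated fibroblasts, had 1453 and 328 reads (3.94-fold, 3.5 to 4.46). Fn1 (fibronectin), the main protein of provisional matrix, was lower instead, with 12339 reads at day 7 and 19409 at day 3 (1.77-fold lower, 1.73 to 1.81). Thbs1, chosen after its values were seen as the list's one fall, had 974 reads at day 7 and 1745 at day 3 (2.01-fold lower). Fn1 gave 12339 of the 24735 reads of the list at day 7 and 19409 of 27715 at day 3, and the summed reads were 1.26-fold lower at day 7 while the median was higher.

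Enzymes that process collagen did not rise as a group. Their median log2 ratio was -0.04 over 25 genes, of which 2 rose and 1 fell. P4ha1, a prolyl hydroxylase, had 211 reads at day 7 and 415 at day 3 (2.21-fold lower, 1.87 to 2.62), and its relative P4ha3 had 54 and 13 (3.7-fold higher). Lox, the lysyl oxidase that starts cross-links, was lower by 1.56-fold (636 and 881 reads), and Serpinh1, the collagen chaperone, by 1.34-fold (1300 and 1546). Adamts2, which trims procollagen, had 392 and 162 reads (2.15-fold higher). Of the matrix metalloproteinases, Mmp2 (gelatinase A) rose 3.38-fold (775 and 204 reads, interval 2.9 to 3.97), Mmp12 (macrophage elastase) 2.21-fold (2297 and 926) and Mmp3 (stromelysin) 3.69-fold (58 and 14). Mmp14, Mmp19 and Mmp9 were higher by less, with 975, 874 and 735 reads at day 7 against 497, 515 and 345 at day 3. The list held 14 genes with 30 or more reads, of which 5 rose, 2 of them with a higher CPM in heart, and 1 fell.

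Fibroblast and stromal signal genes rose in part. Of 13 fibroblast genes 5 rose, 2 of them with a higher CPM in heart, and none fell, with a median of 0.80: Dpt (dermatopontin) had 367 reads at day 7 and 89 at day 3 (3.67-fold, 2.91 to 4.68), whereas Pdgfra, a receptor common to most fibroblasts, had 616 and 556 (1.01-fold lower, 0.902 to 1.14). Sfrp1, a secreted inhibitor of Wnt signals, had 293 and 31 reads (8.42-fold, 5.8 to 12.6), while the related Sfrp2 had 379 and 303 (1.11-fold). H19, an imprinted noncoding RNA silenced after birth in most tissues, had 794 and 116 reads (6.09-fold, 5.01 to 7.47). Cdkn1c, an imprinted inhibitor of cell division, had 117 and 9 (11.6-fold, 5.89 to 25.9). Ptn (pleiotrophin), a growth factor of developing stroma, had 40 reads at day 7 and 0 at day 3 (11.9-fold against the floor of 3 reads). Sfrp1, H19, Cdkn1c and Ptn each had a lower CPM in heart than in adhesion tissue at day 7. Among the other large rises of that kind were Mamdc2, a matrix protein of fibroblasts (223 and 23 reads, 8.63-fold, 5.61 to 13.9), Dio2, the deiodinase that activates thyroid hormone (72 and 7 reads, 9.16-fold), and Cdk18 (166 and 30 reads, 4.93-fold). A lower CPM in heart does not set aside skeletal muscle, whose list summed to 9083 reads at day 7 and 118 at day 3. The part of skeletal muscle in these rises was not tested. Igf2, a fetal growth factor imprinted beside H19, had 50 and 9 reads (4.95-fold) but a higher CPM in heart, and Igf1 was level (535 and 474 reads).

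TGF-beta ligands differed from each other. Tgfb1, the isoform of leukocytes and wounds, had 279 reads at day 7 and 313 at day 3 (1.26-fold lower, 1.07 to 1.49). Tgfb2 had 66 and 21 reads (2.8-fold higher, 1.69 to 4.82), Tgfb3 84 and 26 (2.88-fold higher, 1.83 to 4.65), and Inhba, an activin subunit, 10 and 26 (2.92-fold lower). Tgfbi, named for its induction by TGF-beta, differed by 1.08-fold (892 and 734 reads).

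Contractile genes of smooth muscle were divided. Of 10 on the list 3 rose, 2 of them with a higher CPM in heart, and none fell (median 0.30), and the reads summed over the whole list of 13 were 1.85-fold higher at day 7. Tpm1 gave 1088 of the 2855 reads of the list at day 7. Acta2 (smooth muscle alpha-actin), the usual myofibroblast marker, had 297 reads at day 7 and 249 at day 3 (1.06-fold, 0.894 to 1.26), Tagln 102 and 85 (1.07-fold), and Myh11 88 and 60 (1.31-fold, 0.93 to 1.84). Tpm2, a tropomyosin of smooth and striated muscle, rose 3.73-fold (385 and 92 reads). Des (desmin) and Tpm1 rose, with 705 and 1088 reads at day 7 against 99 and 287 at day 3, and at the cardiac share given above the heart library would account for 249 and 933 of the day 7 reads. That share rests on the cardiac list, where most day 7 reads were of Ttn, a gene of skeletal muscle too. The part of skeletal muscle in the share and in the reads of Des, Tpm1 and Tpm2 was not tested. Itga7 had 49 and 69 reads, and Myocd 15 and 1, below the count used for calls. The genes of the synthetic state were near level, apart from Mmp3: Vim had 4451 and 3177 reads (1.25-fold higher), Myh9 3139 and 3057 (1.09-fold lower) and Cd44 1169 and 1253 (1.2-fold lower).

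**Figure D3:**
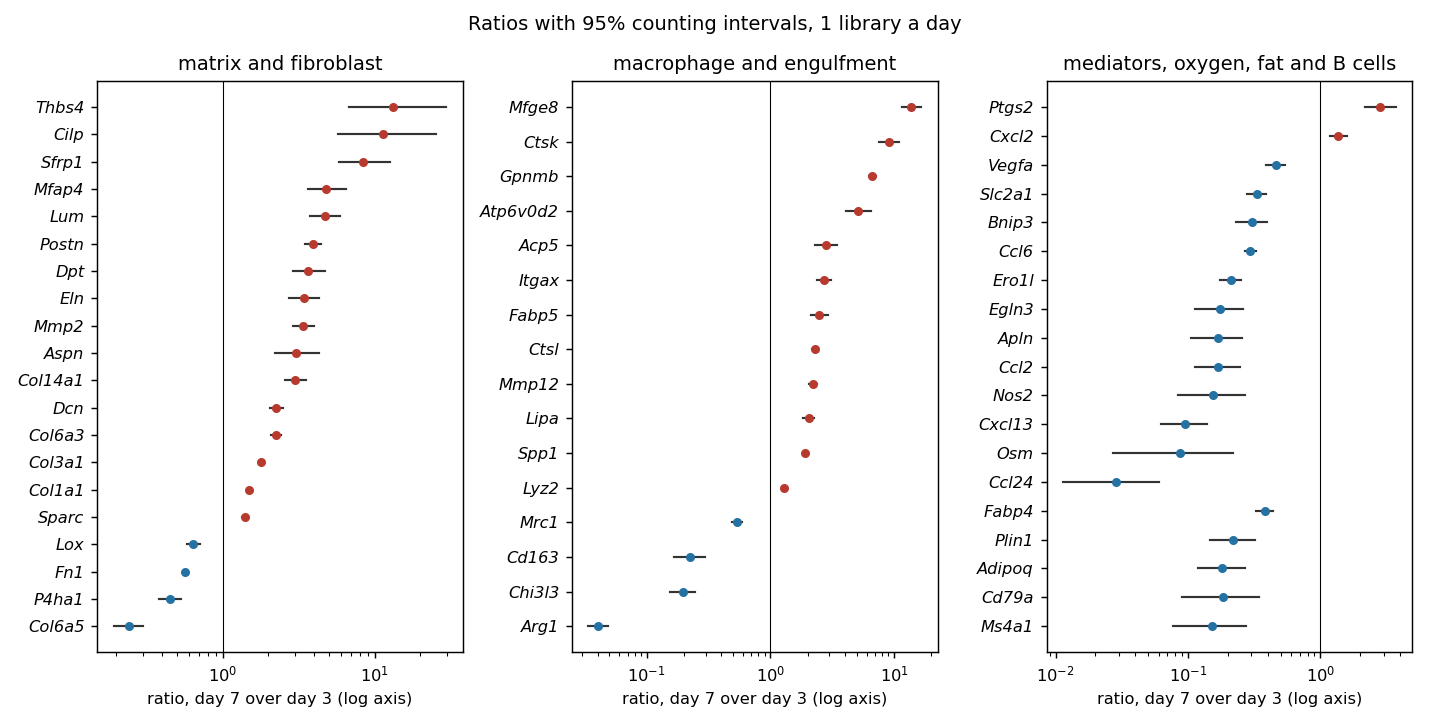
Ratio of day 7 over day 3 (log axis) with its 95% counting interval for matrix and fibroblast genes (left), macrophage and engulfment genes (middle) and mediators, oxygen-response, fat and B cell genes (right). Red points lie above 1 and blue points below it with the whole interval; Fn1, Lox and P4ha1 lie below 1 while Lum, Postn and Eln lie above 3.

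Several genes for taking up and digesting debris rose. Gpnmb (chr6:49036518-49058182, mm10), a glycoprotein of lysosome-rich macrophages, had 7559 reads at day 7 and 1006 at day 3 (6.69-fold, 6.26 to 7.15). It moved to rank 21 per exon length at day 7, against rank 265 at day 3, among genes outside the muscle, lung and blood lists. Mfge8, a bridge between dying cells and the phagocytes that engulf them, had 2144 and 138 reads (13.8-fold, 11.6 to 16.6). Mfge8 is not on the macrophage lists, and the cells behind its reads cannot be told apart in bulk tissue. Spp1 (osteopontin) was the most abundant of these genes per exon length, with 5048 RPKM at day 7 and 2690 at day 3, and was 1.91-fold higher (15438 and 7206 reads). Of 14 lipid-handling genes 5 rose, 2 of them with a higher CPM in heart, and none fell, with a median log2 ratio of 0.91. Fabp5, a fatty acid carrier, had 585 and 210 reads (2.48-fold). Cd36 and Lpl also rose, with 2303 and 3327 reads at day 7 against 832 and 1253 at day 3, but heart muscle makes much of both, and the cardiac share would account for 218 and 733 of their day 7 reads.

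Genes of osteoclasts and giant cells rose beside them: 5 of 11 rose and none fell, with a median of 0.92, and none of the 5 was higher in heart. Ctsk (chr3:95499286-95509362), the collagen-cleaving cathepsin K, had 1367 reads at day 7 and 134 at day 3 (9.08-fold, 7.6 to 10.9). Atp6v0d2, the proton pump subunit required for osteoclast fusion in mice, had 502 and 87 (5.14-fold, 4.08 to 6.53), and Acp5, tartrate-resistant acid phosphatase, 396 and 125 (2.82-fold, 2.3 to 3.48). Ckb, the creatine kinase of osteoclasts and brain, had 227 and 80 (2.53-fold). Fibroblasts also make some Ctsk, and the cells behind these reads cannot be told apart in bulk tissue. The digestive machinery was higher as a whole but mostly under 2-fold: all 21 lysosomal hydrolase genes had ratios above 1 (median 0.44), with 1 that rose (Lipa, acid lipase, 1188 and 517 reads), and of 16 proton pump genes 2 rose (median 0.58). Ctsd and Ctsb, the main lysosomal cathepsins, had 7720 and 8592 reads at day 7 against 3705 and 5170 at day 3, and Ctsl rose 2.29-fold (3579 and 1392 reads).

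To show sequence beside these values, the promoter windows of the 10 named members of both lists, of which Spp1 and Mmp9 were under 2-fold higher, were read for the letters TGANTCA (bound by AP-1 factors) and TCACGTGA (bound by MITF and its relatives), on both strands; the motifs do not overlap. RefSeq (GRCm38.p6) gave windows for 6 of the 10. TGANTCA stood in the Gpnmb window alone, 8 bases after the start, against 7.81% of all 32851 windows of 300 bases, and TCACGTGA in none, against 0.974% of all windows. The windows of the 2 largest rises of these lists by interval are shown, with matched letters in capitals: chr6:49036268-49036567 (plus strand) for Gpnmb and chr3:95498960-95499259 (plus strand) for Ctsk.
Gpnmb: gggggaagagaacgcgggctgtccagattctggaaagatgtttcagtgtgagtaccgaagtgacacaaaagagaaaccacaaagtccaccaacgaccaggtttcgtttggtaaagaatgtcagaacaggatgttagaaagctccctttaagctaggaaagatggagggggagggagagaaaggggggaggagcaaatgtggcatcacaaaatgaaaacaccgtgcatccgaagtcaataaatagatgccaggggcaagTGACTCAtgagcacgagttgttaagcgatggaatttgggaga
Ctsk: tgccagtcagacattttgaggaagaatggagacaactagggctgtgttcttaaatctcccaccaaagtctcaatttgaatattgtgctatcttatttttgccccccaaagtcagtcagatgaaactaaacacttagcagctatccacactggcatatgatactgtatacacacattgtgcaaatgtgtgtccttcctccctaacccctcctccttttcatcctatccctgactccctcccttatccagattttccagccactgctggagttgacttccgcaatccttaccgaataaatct
A match is a description of letters and not of binding, and other letters that the same factors may bind were not read.

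The gene set of alternative activation fell the most of all lists. Of its 8 genes with 30 or more reads 7 fell and none rose, with a median log2 ratio of -2.58. Arg1, arginase 1, which turns arginine into ornithine, had 131 reads at day 7 and 2873 at day 3 (24.6-fold lower, 20.7 to 29.6). Ccl24, an eosinophil attractant, had 7 and 217 reads (34.8-fold lower, 16.6 to 87.6). Chi3l3, a chitinase-like protein, had 97 and 441 (5.11-fold lower), and Mgl2, a lectin of alternatively activated macrophages, had 1 and 32 (35.9-fold lower, 6.0 to 1463). Il4ra, the receptor chain for interleukin 4, had 357 and 686 (2.16-fold lower). Nos2, which competes with Arg1 for arginine and is a marker of classical activation, fell as well, with 15 reads at day 7 and 86 at day 3 (6.44-fold lower, 3.7 to 12.0), as did Slc7a2, an arginine carrier, with 160 and 635 (4.46-fold lower). Genes of arginine use thus fell on both sides of that division.

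General macrophage genes were lower by less. Over 16 of them the median was -0.36, 2 fell, none rose, and 11 had intervals wholly below 1 and 2 above it. Their summed reads were level (1.0-fold lower, 0.979 to 1.03), but Lyz2 gave 7648 of 13687 reads at day 7, and without it the sum was 1.29-fold lower (1.25 to 1.34), a sum added after the values were seen. Lyz2 (lysozyme) was 1.29-fold higher (7648 and 5286 reads) and Csf1r, the receptor for macrophage growth factor, 1.27-fold lower (1256 and 1423). Scavenger receptors were the 2 falls: Cd163, the haemoglobin scavenger, had 60 reads at day 7 and 239 at day 3 (4.47-fold lower, 3.36 to 6.04), and Marco, a receptor for particles and bacteria, 14 and 49 (3.93-fold lower). Mrc1, the mannose receptor, was 1.87-fold lower (696 and 1160 reads). Cd5l, a secreted protein of tissue macrophages, had 20 and 115 reads (6.46-fold lower). Itgax (CD11c), an integrin of dendritic cells and of some tissue macrophages, rose 2.72-fold instead (955 and 313 reads), whereas Cd74, the chaperone of MHC class II, was 1.6-fold lower (915 and 1304). Anpep (CD13) rose 2.36-fold (1213 and 457 reads).

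Attractants and inflammatory mediators fell in part. Of 18 monocyte and lymphocyte attractants and their receptors 8 fell and 1 rose, with a median of -0.68. Ccl2, the main monocyte attractant, had 32 reads at day 7 and 168 at day 3 (5.9-fold lower, 4.02 to 8.9), Ccl6 539 and 1622 (3.38-fold lower), and Cxcl13, the B cell attractant, 29 and 272 (10.5-fold lower, 7.17 to 16.0). Osm (oncostatin M) had 5 and 51 reads (11.5-fold lower, 4.6 to 36.8). Ptgs2 (cyclooxygenase 2) rose 2.83-fold (238 and 75 reads). Neutrophil attractants and their receptor showed no common direction, with 1 of 5 that fell, none that rose and a median of -0.36. Cxcl3 had 20 reads at day 7 and 78 at day 3 (4.38-fold lower, 2.65 to 7.56) and Cxcl1 24 and 37 (1.73-fold lower), while Cxcl2 had 477 and 312 (1.36-fold higher) and Cxcl5 188 and 118 (1.42-fold higher). Neutrophil genes as a list had a median of -0.25 over 12 genes, of which 1 fell (Lcn2, lipocalin 2, 88 and 222 reads); Mmp9 was 1.9-fold higher and Itgam (CD11b) 1.55-fold lower (1216 and 1675 reads). Interferon-stimulated genes were level (median 0.05, and -0.02 where totals left out the muscle, lung and blood lists; none of 15 past 2-fold).

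Some clotting genes fell. Of 17 genes of coagulation and fibrinolysis 5 fell and 1 rose, with a median of -0.26. Serpinb2, an inhibitor of plasminogen activators, had 88 reads at day 7 and 255 at day 3 (3.25-fold lower, 2.54 to 4.2), F10 (factor X) 146 and 332 (2.55-fold lower) and F13a1, the subunit that cross-links fibrin, 334 and 708 (2.38-fold lower). Serpine2, which blocks thrombin and plasminogen activators and is made by fibroblasts, rose 3.73-fold (113 and 27 reads). Complement genes split, with 3 rises, 1 fall and a median of -0.34 over 18: Serping1, the C1 inhibitor, had 978 and 395 reads (2.2-fold higher), C1s 514 and 221 (2.07-fold higher), and C3, the most abundant, 5906 and 5358 (1.02-fold lower). C7, a component of the terminal complex outside that list, had 64 and 6 reads (9.5-fold higher, 4.13 to 26.8).

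Genes induced by low oxygen were lower. Of 18 genes of glycolysis and the hypoxia response 7 fell and none rose, and all 18 had log2 ratios below 0 (median -0.88). Egln3, an oxygen sensor that hypoxia itself induces, had 30 reads at day 7 and 153 at day 3 (5.73-fold lower, 3.85 to 8.78). Slc2a1, the glucose carrier GLUT1, had 196 and 529 (3.03-fold lower, 2.57 to 3.59), Bnip3 73 and 214 (3.29-fold lower), and Slc16a3, the lactate exporter, 220 and 455 (2.32-fold lower). Ero1l, an oxidase of the endoplasmic reticulum that hypoxia also induces, had 147 and 622 (4.75-fold lower, 3.96 to 5.73). Abundant glycolytic enzymes differed little: Pkm had 2411 and 2449 reads (1.14-fold lower) and Aldoa 1803 and 1725 (1.07-fold lower). Genes of the secretory pathway were also lower, with 3 of 20 that fell and a median of -0.39.

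Vessel genes gave a mixed picture. Of 15 genes of vessel sprouting 3 rose, 2 of them with a higher CPM in heart, and 2 fell (median 0.46). Angpt1, a ligand that steadies vessels, had 30 reads at day 7 and 6 at day 3 (4.45-fold higher, 1.82 to 13.1), and the cardiac share would account for 11.1 of the 30. Vegfa, the main angiogenic factor and a hypoxia target, fell 2.18-fold (224 reads at day 7, 435 at day 3, interval 1.85 to 2.57), and Apln (apelin), a marker of endothelial tip cells, had 25 and 133 reads (5.98-fold lower, 3.88 to 9.56). Vegfc had 34 and 21 reads (1.44-fold, 0.813 to 2.61), Figf (VEGF-D) 15 and 19, and Vegfb 67 and 15, of which the cardiac share would account for 31.6. The endothelial list was nearly level, with a median of 0.20 and 1 of 17 past 2-fold; Vwf was 1.64-fold higher (360 and 196 reads). Lymphatic genes had the highest median outside muscle and lung (2.56 over 6 genes, 4 rose, 2 of them with a higher CPM in heart). Prox1, the master regulator of lymphatic identity, had 37 reads at day 7 and 1 at day 3, but heart muscle also held it (174 reads in heart at day 7), and the cardiac share would account for 16.3 of the 37. Reln had 64 and 4 reads, Mmrn1 60 and 4, and Flt4, the VEGF-C receptor, 103 and 35 (2.62-fold, 1.77 to 3.96), with 6.74, 4.59 and 8.7 reads by that share, while Pdpn (podoplanin), which fibroblasts and macrophages also make, was level (354 and 281 reads).

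Cell division genes were lower as well. Of 26 mitosis genes 8 fell and none rose (median -0.85), and of 18 replication genes 3 fell (median -0.90). Mki67, the Ki-67 antigen of cycling cells, had 313 reads at day 7 and 578 at day 3 (2.07-fold lower, 1.8 to 2.39), Ube2c 12 and 51 (4.77-fold lower), Plk1 16 and 44 (3.09-fold lower) and Rrm2, a subunit of ribonucleotide reductase, 23 and 73 (3.56-fold lower). Top2a fell just short of 2-fold (160 and 277 reads, 1.94-fold lower). Histone genes, a list added after the data were seen, were lower too, with 24 of 41 past 2-fold (median -1.13).

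Markers of fat and of B cells fell together. Of 9 adipocyte genes 8 fell (median -1.40): Adipoq, the fat cell hormone adiponectin, had 31 reads at day 7 and 152 at day 3 (5.51-fold lower, 3.72 to 8.39), Plin1, the lipid droplet coat, 35 and 142 (4.56-fold lower), and Fabp4 255 and 598 (2.63-fold lower). Car3, abundant in fat and slow muscle, had 254 and 1093 (4.83-fold lower), although muscle genes rose. Gpr81, a lactate receptor of fat cells, had 1 and 32 reads. Of 6 B and plasma cell genes 5 fell (median -1.89): Ms4a1 (CD20) had 13 and 76 reads (6.57-fold lower, 3.62 to 12.9), Cd79a 12 and 58 (5.43-fold lower), and Igj, the antibody joining chain, 186 and 302 (1.82-fold lower). No T or NK cell gene reached 30 reads; the list summed to 73 reads at day 7 and 95 at day 3. Whether less fat was taken at day 7 was not tested.

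Clock genes rose in part. Of 13, 7 rose and none fell (median 1.44): Dbp, an output factor of the daily clock, had 48 reads at day 7 and 6 at day 3 (7.12-fold, 3.04 to 20.4), Tef 173 and 50 (3.08-fold), Nr1d2 161 and 48 (2.99-fold) and Bhlhe41 220 and 72 (2.72-fold). Of the 7, 6 had a higher CPM in heart at day 7. In heart Dbp was also higher at day 7, with 188 reads against 66 at day 3 (2.94-fold), and Tef with 507 against 274 (1.91-fold). Arntl, which peaks opposite to Dbp and was chosen after its values were seen, had 17 reads at day 7 and 27 at day 3 in adhesion tissue, and 5 and 20 in heart. The hour of sampling was not given in the sources used here.

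Glucocorticoid-induced and immediate early genes showed no common direction. Of 12 glucocorticoid-induced genes 3 rose and 1 fell (median 0.17): Sgk1, a kinase of salt balance, had 717 reads at day 7 and 276 at day 3 (2.31-fold higher, 2.01 to 2.67), Pdk4 and Zbtb16 rose but had a higher CPM in heart, and Mt2, a metallothionein, had 105 and 234 reads (2.5-fold lower). Of 16 immediate early genes 2 fell and none rose (median -0.26): Ier3 had 100 and 239 reads (2.68-fold lower) and Nr4a1, an orphan nuclear receptor, 83 and 154 (2.08-fold lower).

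**Figure D4:**
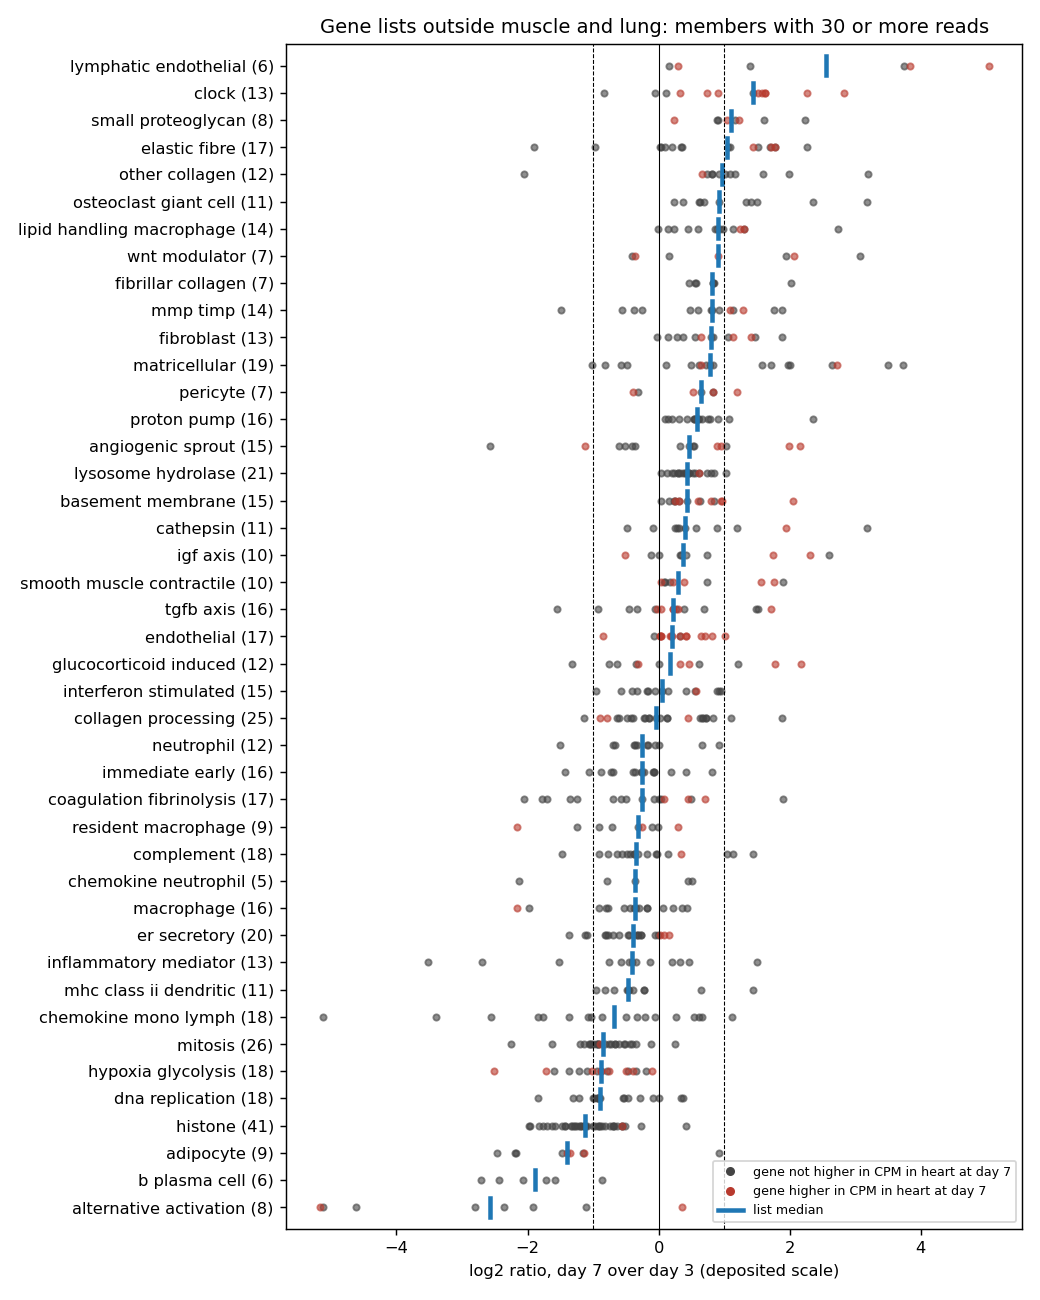
Log2 ratio of day 7 over day 3 for the members of each list with 30 or more reads (points, number in brackets) and the list median (blue bar), for lists with 5 or more such genes outside muscle, lung and blood. Red points are genes with a higher CPM in heart at day 7 than in adhesion tissue at day 7. Alternative activation has the lowest median (-2.58) and lymphatic genes the highest (2.56).

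Several of the adhesion changes stood beside changes in the heart libraries of the same days, which are 1 library each as well and were scaled within their own table. Gpnmb had 948 reads in heart at day 7 and 118 at day 3 (8.3-fold higher, 6.85 to 10.1), Atp6v0d2 60 and 10 (6.2-fold), Mmp12 323 and 70 (4.77-fold) and Itgax 144 and 33 (4.51-fold). Mfge8 was higher by less in heart (568 and 221 reads, 2.66-fold, 2.27 to 3.12), and Ctsk had 66 and 31 (2.2-fold). Lum, Sfrp1 and Cilp were level in heart, with 227, 84 and 49 reads at day 7 against 224, 89 and 50 at day 3. Among the falls, Ccl2 (7 and 42 reads in heart, 5.8-fold lower), Apln (9 and 49, 5.27-fold lower), Arg1 (18 and 79, 4.25-fold lower) and Mki67 (86 and 182, 2.05-fold lower) were lower in heart too. Cd163 was higher in heart at day 7 (110 and 53 reads, 2.15-fold, 1.53 to 3.04) and lower in adhesion tissue, and Slc7a2 likewise (57 and 37 reads in heart, 1.59-fold higher). Egln3 was near level in heart (70 and 74 reads). The differences between the tissues were not tested.

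**Figure D5:**
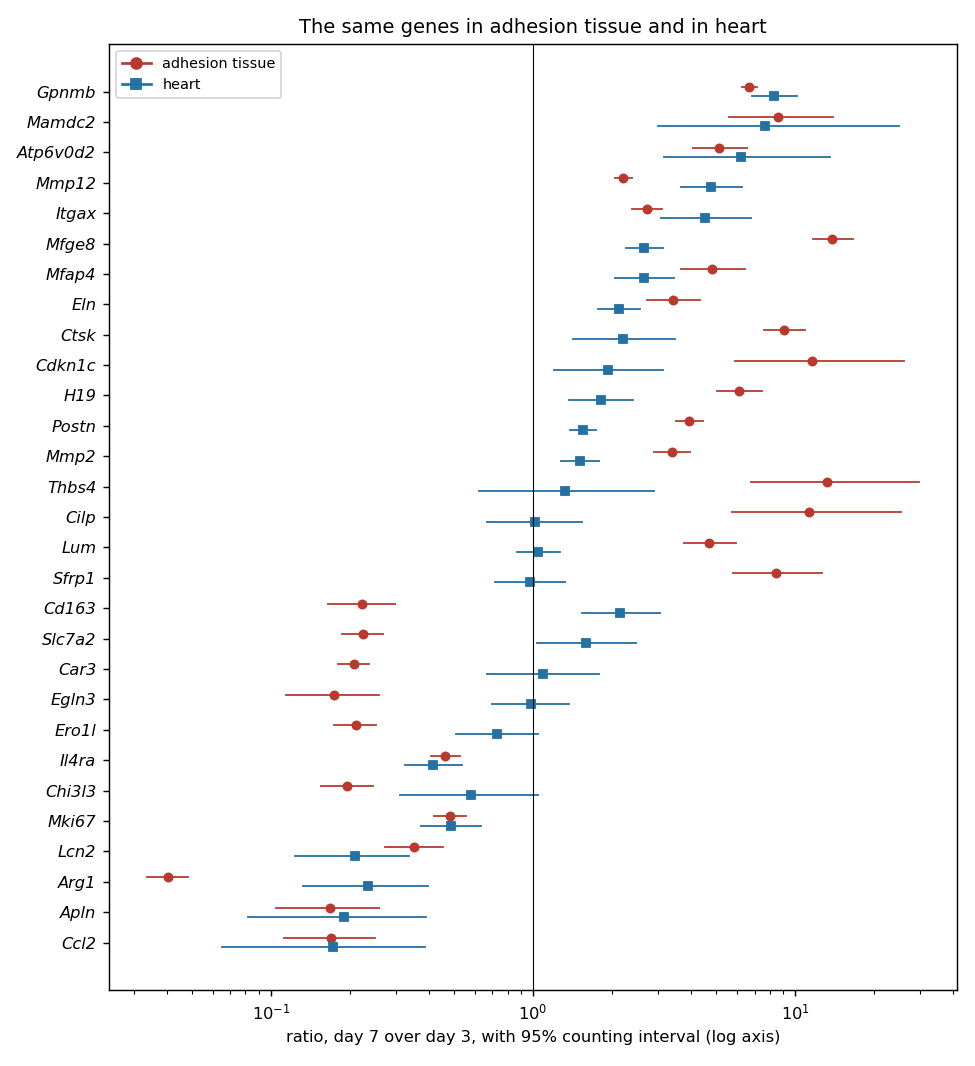
Ratio of day 7 over day 3 (log axis) with its 95% counting interval for the same genes in adhesion tissue (red circles, upper line) and in heart (blue squares, lower line). Gpnmb and Atp6v0d2 lie right of 1 and Ccl2 and Apln left of 1 in both tissues, and Cd163 lies left of 1 in adhesion tissue and right of 1 in heart.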

How the data were processed

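RNA from adhesion tissue and heart was sequenced on a MiSeq after depletion of ribosomal RNA, with a kit that keeps strand. The deposited tables give, per gene and library, a signal that the authors scaled within each table, beside the summed exon length; per the labels, the build was mm10 and TopHat, Cufflinks and edgeR were used, in roles and with a strand setting not given in the sources used here. Every value was a whole multiple (within 0.1 read) of 1 value per library, and whole reads were recovered from it. The authors' own comparison columns (a statistic, its rank and a false discovery rate) were not used. Ratios used Python 3.11.15 and scipy 1.17.1. The interval was the exact binomial interval of the reads at 95%; where a library had 0 reads, the floor was 3 reads. Calls needed 30 or more reads over both libraries and a ratio over 3-fold (the cutoff of the study) or 2-fold; the adhesion library of day 1 entered no ratio. The intervals and calls were tried on simulated reads with counting error alone, where 95.6% of the intervals held the ratio that was set. Variation between animals, dissections or duplicate reads was not simulated, so the calls between the days are not checked by it. Rn45s, a ribosomal RNA precursor, took 6.66% of reads at day 7 and 11.4% at day 3. Names turned into dates (27 genes) are not named. Genes named are those the study names, the 15 largest rises and 15 largest falls by interval bound outside the muscle, lung and blood lists, and in each list the 4 farthest from 1 by that bound and the 2 with most reads; the 25 largest rises not higher in heart were added after the values were seen. Members, lists and rules were chosen with earlier results of these data known. Exons of 19 named genes overlap a gene on the other strand (Ctsb by 774 bases, Dbp by 539, Mmp19 by 789, Abca3 by 691), and their reads may be shared. Reads without molecular identifiers are not independent molecules. Some genes that the rule names are not reported here.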

Additional observations from a re-analysis of the deposited data

Results flagged for a closer look

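The heart library of day 7, which entered no ratio of adhesion tissue, held 203 reads of the lung gene Sftpc, above the 3 reads that a count of 0 allows, and 0 reads stood in heart at days 0 and 3. The mesothelial list was 1.53-fold lower at day 7 than at day 3 in adhesion tissue (142 and 193 reads) and 2.70-fold higher in heart. The thymus list was 1.83-fold lower in adhesion tissue (38 and 62 reads) and 3.84-fold higher in heart. Neither difference between the tissues was tested.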

How the results depend on the processing

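The 4 counts of genes moved by over 1.5 times with the read filter and with the demand on the interval. With no filter, which also took a pseudocount of 1, 819 genes were over 3-fold higher and 306 lower, and 1694 and 1032 over 2-fold. With 10 or more reads the counts were 557 and 207 over 3-fold and 1097 and 640 over 2-fold, and with 100 or more reads 131 and 35, and 259 and 124. Where the whole interval had to lie beyond the fold, 160 were higher and 33 lower at 3-fold, and 273 and 77 at 2-fold. A pseudocount of 5 left 60 genes over 3-fold lower. Chosen after seeing the data, leaving out the muscle, lung and blood lists and genes with a higher CPM in heart at day 7 left 91 genes over 3-fold and 259 over 2-fold higher; taking the heart profile out at its cardiac share gave 215 and 131 over 3-fold. CPM, edgeR 4.0.16 TMM and DESeq2 1.42.0 size factors shifted all ratios by at most -0.02 on the log2 scale, and CPM on totals without the muscle, lung and blood lists by -0.07; no count moved by over 1.5 times. An exact binomial test of reads with Benjamini-Hochberg adjustment, which compares these 2 libraries and not the days, found 1212 genes higher and 844 lower of 16777 at 0.05. Of the values of named genes under the alternatives, 2004 stayed within their interval and 26 moved. Of the list medians under the alternatives, 397 stayed within 0.2 on the log2 scale and 16 moved. The direction of 1 list median turned, that of interferon-stimulated genes. No replicate could be left out and no paired analysis was possible because each day had 1 library.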
